A study of Gallus gallus with 4 samples.

Results

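Distal intergenic c-Myc peaks are the subject here: called binding sites that the authors annotated as intergenic and that lie over 200 kb from the nearest annotated transcription start site (TSS). Peaks on the Z sex chromosome were left out, as were those whose annotation carries a CpG island or a repeat name. This rule left 132 of 1061 myotube peaks and 3090 of 19354 myoblast peaks, 3222 of 20415 in all. It used position and annotation, not signal.

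The study mapped c-Myc on the chicken genome in primary cells at passage 1 from embryonic skeletal muscle. Myotubes, the differentiated and multinucleated muscle cells, were obtained in medium with 2% horse serum, and proliferating myoblasts, their precursors, were kept in medium with 15% fetal bovine serum. Chromatin was immunoprecipitated with an antibody to c-Myc (abcam ab56) or with IgG (bioss bs-0310P), with 1 library per antibody and cell state and thus 4 libraries. The sources used here do not state how many embryos gave the cells or how far fusion had gone.

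c-Myc is a basic helix-loop-helix leucine zipper transcription factor that binds E-box DNA as a dimer with MAX. It is best known at promoters, but it also occupies enhancers, which can act on genes over long distances. Long intergenic stretches around developmental and neuronal genes often carry such enhancers, and the sequence around MYC itself holds distant enhancers in human and mouse. A peak far from any gene can therefore be regulatory, but a called peak does not by itself show that, and the nearest gene need not be the one regulated.

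The peaks were far from the genes of the authors' annotation, but the stretches around most of them held other genes. That annotation named 4834 gene IDs around all peaks, and 13710 of the 18023 protein-coding genes of the newer chicken assembly GRCg7b (76.1%) were not among them. Between the listed genes that flank a distal peak, GRCg7b placed a median of 5 other protein-coding genes in myotubes (quartiles 3 and 7, 125 peaks) and likewise in myoblasts (3 and 7, 2909 peaks). No other coding gene lay between the flanking genes for 4 of 125 myotube peaks (3.20%, 95% interval 0.879 to 7.99%) and for 114 of 2909 myoblast peaks (3.92%, 3.24 to 4.69%). At least 5 lay there for 63.2% of myotube peaks (54.1 to 71.6%) and for 55.3% of myoblast peaks (53.5 to 57.1%). The peaks are therefore called distal intergenic and not desert peaks. Distances below are to a listed TSS; the distance to the nearest GRCg7b gene was not measured, and a peak may still lie in a long gene-free part of its stretch.

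Gene density was nevertheless lower around them, a contrast that the rule itself favours, because a distal peak needs a long interval between listed genes. The flanking interval held a median of 5.18 coding genes per Mb for distal peaks in myotubes, against 9.78 for intergenic peaks within 200 kb of a TSS. In myoblasts the medians were 4.28 for distal peaks and 8.47 for the nearer ones. Intervals had a median length of 1.08 Mb around the distal peaks of either state, against 0.278 Mb around nearer peaks in myotubes and 0.329 Mb in myoblasts. No other coding gene lay between the flanking genes for 7.73% of nearer peaks in myotubes and 10.2% in myoblasts, more often than for distal peaks. The rule favours this contrast too, because a shorter interval has less room for other genes.

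**Figure D1:**
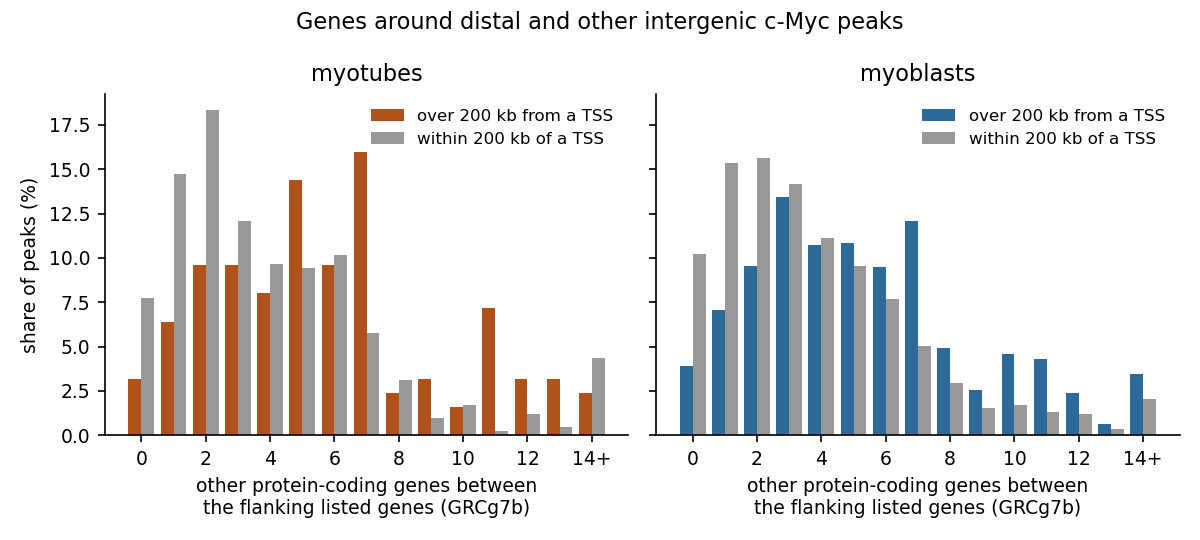
Share of peaks (vertical axis, percent) by the number of other protein-coding genes that GRCg7b places between the flanking listed genes (horizontal axis), for distal peaks (coloured) and intergenic peaks within 200 kb of a TSS (grey), myotubes on the left and myoblasts on the right. Distal peaks without such a gene made up 3.20% in myotubes and 3.92% in myoblasts.

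Depth bears on every number below. In myotubes the c-Myc library held 8.65M tags (M for 1e+06) and its IgG library 19.3M; in myoblasts these were 11.5M and 16.1M. Peaks were 154 bp wide in myotubes and 200 bp wide in myoblasts. No library has a replicate, so no test was made between the states, and peaks of 1 library are not replicates, so none was made between classes of peaks. Intervals are exact 95% binomial intervals, for a median those of its rank, and cover counting error only. The score of a peak is c-Myc tags at calling per 10M tags of the library and is not corrected for width. Tag numbers come from the authors' separate count of the same peaks, which matched the score within 0.1 per 10M for 64.4% of distal peaks in myotubes and 61.7% in myoblasts.

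Distal peaks made up 12.4% of the myotube peaks (10.5 to 14.6%) and 16% of the myoblast peaks (15.5 to 16.5%). This order was reversed when only the 1061 myoblast peaks with the highest score were kept, as many as myotubes have: 81 were distal (7.63%). It held when the higher-scoring 50% of peaks were kept in either state, with 11.7% in myotubes and 14.1% in myoblasts. Cutting by score also changes the strength of the peaks kept, so an effect of list length alone was not tested. Of intergenic peaks 16.2% were distal in myotubes (13.7 to 18.9%) and 20.7% in myoblasts (20.1 to 21.4%). The threshold itself marks no gap. The closest distal peak lay 201773 bp from a TSS in myotubes and 200146 bp in myoblasts, and the farthest peak just inside the limit lay at 198224 bp in myotubes and 199927 bp in myoblasts. The rule's other conditions removed 12 intergenic peaks beyond 200 kb on Z, 2 labelled CpG island and 14 labelled as repeats in myotubes, and 151, 88 and 321 such peaks in myoblasts.

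The median distance to a TSS was 340.3 kb in myotubes (quartiles 269 and 457 kb) and 333.0 kb in myoblasts (253 and 487 kb). Peaks beyond 500 kb numbered 22 in myotubes (16.7% of distal peaks) and 731 in myoblasts (23.7%), and those beyond 1000 kb numbered 3 and 131. The farthest peaks of both states lay in the same stretch of chromosome 1, between the microRNA genes MIR1743 and MIR7445-1, 5.06 Mb apart. In myotubes they lay 2.24 Mb from MIR7445-1 (score 12.7, 11 c-Myc and 0 IgG tags) and 2.11 Mb from MIR1743 (score 12.7, 11.5 c-Myc and 4.0 IgG tags). In myoblasts the farthest lay 2.51 Mb from MIR7445-1 (score 13.5, 15.5 c-Myc and 1.0 IgG tags). GRCg7b places 3 coding genes in this stretch, among them KLHL1 and the protocadherin gene PCDH9, and it held 2 myotube and 18 myoblast distal peaks, or 3.86 myoblast peaks per Mb beyond 200 kb.

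Distal peaks were weak, as most peaks of either list were, and close to each other in strength. Scores ran from 11 to 19.1 in myotubes and from 7.84 to 25.7 in myoblasts. The median score was 13.3 both for distal peaks and for nearer intergenic peaks in myotubes, and 12.2 for distal against 12.6 for nearer peaks in myoblasts. A distal peak held a median of 11.5 c-Myc tags in myotubes (9.5 to 16.5) and 14.5 in myoblasts (8.0 to 29.5). Over all peaks the median score was 13.3 in myotubes and 12.6 in myoblasts, with an upper quartile of 14.4 in either list. The strongest peaks of the lists were elsewhere, with scores up to 214.4 in myotubes and 297.2 in myoblasts over all peaks.

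Mean IgG was lower at distal peaks, and the caller's folds over IgG and over the local region were higher. The c-Myc signal around the peaks was not measured by itself. IgG tags averaged 2.44 per distal peak against 2.89 per nearer peak in myotubes, and 2.44 against 2.70 in myoblasts. Their median was 2 against 3 in myotubes, but 2.5 for both classes in myoblasts. No IgG tag was counted in 20 of 132 distal peaks in myotubes (15.2%, 9.51 to 22.4%), against 42 of 535 nearer peaks (7.85%, 5.72 to 10.5%). This difference of 7.30 percentage points was 2.02 with a limit of 100 kb and 13.9 with 500 kb, where 22 distal peaks remained. Both values stayed within its counting interval. In myoblasts the shares were 8.64% of distal (7.67 to 9.69%) and 7.29% of nearer peaks (6.78 to 7.84%). The median fold over IgG, a ratio given by the authors' peak caller, was 12.1 for distal peaks in myotubes (9.81 to 13.4) against 9.29 for nearer peaks (8.54 to 10.03). In myoblasts it was 8.76 (8.41 to 9.01) against 7.94 (7.85 to 8.13).

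The fold over the local region, the caller's ratio of a peak to its own surroundings, differed in the same direction. Its median was 8.55 for distal peaks (8.08 to 8.79) against 7.32 for nearer peaks (7.13 to 7.48) in myotubes, and 6.67 (6.58 to 6.73) against 5.79 (5.76 to 5.84) in myoblasts. With distance it grew in steps in myoblasts, with medians of 5.35 within 10 kb, 5.67 at 10 to 50 kb, 5.87 at 50 to 100 kb, 6.09 at 100 to 200 kb, 6.48 at 200 to 300 kb, 6.64 at 300 to 500 kb, 6.78 at 500 to 1000 kb and 7.77 beyond. In myotubes it was 7.15 within 10 kb and 9.13 at 500 to 1000 kb, where only 19 peaks lay, but 7.04 at 10 to 50 kb and 8.06 at 300 to 500 kb were each below the bin before. A requirement that both folds reach 6 kept 80.3% of distal against 64.5% of nearer peaks in myotubes and 48.2% against 32.3% in myoblasts. Folds are relative to background, so a larger fold at an equal score is not more c-Myc.

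**Figure D2:**
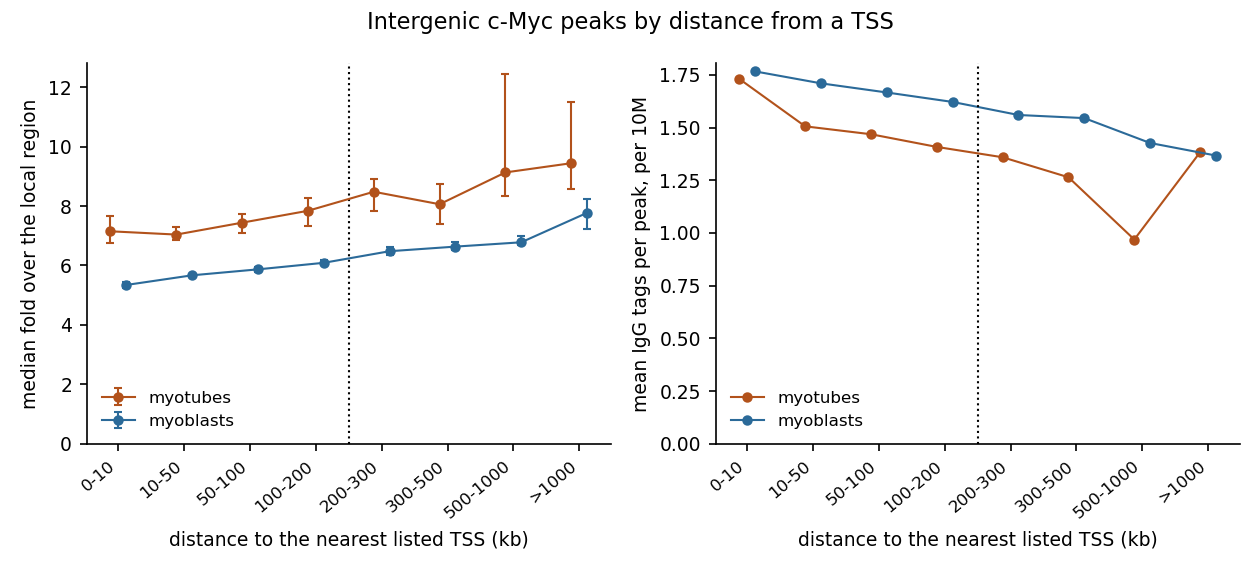
Median fold over the local region with its 95% interval (left) and mean IgG tags per peak scaled to 10M tags of the IgG library (right) for intergenic peaks in bins of distance to the nearest listed TSS, myotubes in orange and myoblasts in blue; the dotted line marks 200 kb. In myoblasts the fold was 5.35 in the nearest bin and 7.77 in the farthest, and the farthest myotube bin holds 3 peaks.

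The shape of the peaks differed little. The focus ratio, the fraction of tags placed as at a point source, had a median of 0.807 for distal and 0.80 for nearer peaks in myotubes, and 0.806 and 0.795 in myoblasts. Distal peaks were upstream of their nearest gene in 51.5% of cases in myotubes (42.7 to 60.3%) and 51.9% in myoblasts (50.1 to 53.7%), whereas nearer intergenic peaks were upstream in 60.6% and 57.1%.

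Large chromosomes carried most distal peaks. Macrochromosomes 1 to 5 held 87 of 132 in myotubes (65.9%, 57.2 to 73.9%), against 52.0% of nearer intergenic peaks (47.6 to 56.3%). In myoblasts they held 2330 of 3090 (75.4%, 73.8 to 76.9%), against 57.1% of nearer peaks (56.1 to 58.1%). Microchromosomes, which are short and gene-dense in birds, held 13.6% of distal (8.29 to 20.7%) and 31.0% of nearer peaks (27.1 to 35.1%) in myotubes, and 10.2% (9.12 to 11.3%) and 24.5% (23.6 to 25.4%) in myoblasts. Set against all peaks of a class, distal peaks were 16.2% on macrochromosomes and 5.81% on microchromosomes in myotubes, and 20.8% and 7.30% in myoblasts. The peaks spanned 604.2 Mb of macrochromosomes, 143.2 Mb of intermediate chromosomes (6 to 10) and 171.2 Mb of microchromosomes. Per Mb, myotubes had 0.144, 0.189 and 0.105 distal peaks on these classes, so macrochromosomes were not the densest. Myoblasts had 3.86, 3.12 and 1.83. The span includes sequence within 200 kb of a TSS, so these values are not densities within distal sequence. Chromosomes 1 and 2 carried 25 myotube peaks each, and 637 and 638 myoblast peaks. Chromosome 3 had 20 in myotubes and 549 in myoblasts, which was 25.2% of all its myoblast peaks, while chromosome 5 had 123, or 9.30%. Chromosomes 21, 23 and 28 had 1 distal peak each in myoblasts.

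**Figure D3:**
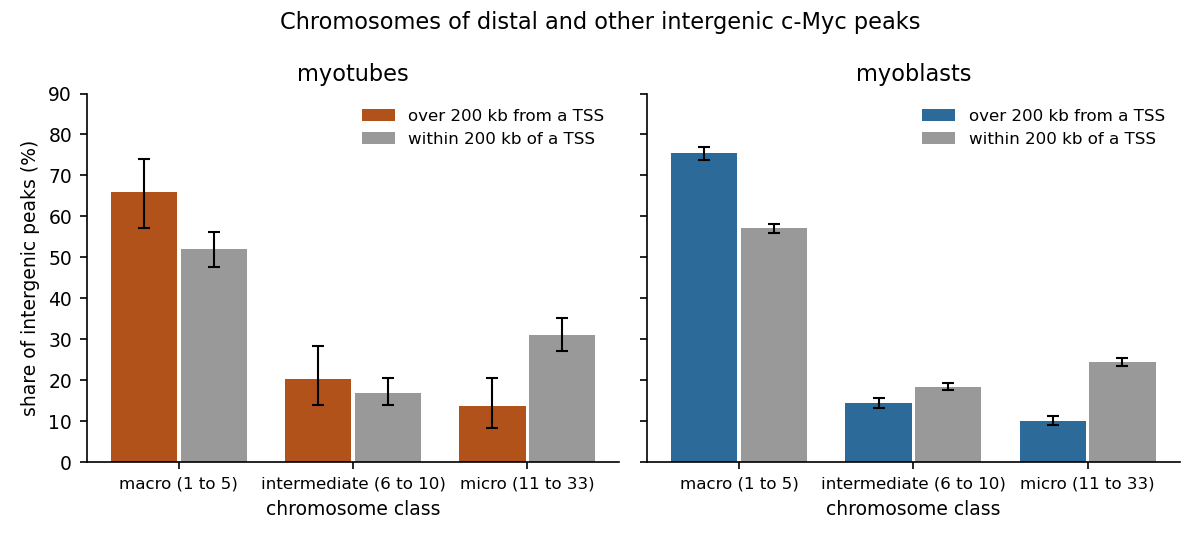
Share of intergenic peaks on macrochromosomes (1 to 5), intermediate chromosomes (6 to 10) and microchromosomes (11 to 33), in percent with exact 95% intervals, for distal peaks (coloured) and peaks within 200 kb of a TSS (grey), myotubes on the left and myoblasts on the right. Macrochromosomes held 65.9% of distal peaks in myotubes and 75.4% in myoblasts.

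The nearest genes were many, and few had several distal peaks in myotubes. The 132 myotube peaks had 114 nearest genes, of which 99 had 1 peak. The 3090 myoblast peaks had 756 nearest genes, 4.09 peaks per gene, and 63 genes with at least 10 peaks held 833 of them (27%). Among the genes of the myotube peaks, 106 of 114 (93.0%) also had a distal peak in myoblasts, which was 14% of the myoblast genes. The 8 others were BCKDHB, COX6C, GRIA1, GRIA3, MIR1724, SGK1, SHISA2 and ZC3H15, with 1 peak each and scores between 11.6 and 14.4. Their stretches were not all without myoblast peaks. Those flanked by BCKDHB, ZC3H15, GRIA1, SGK1 and SHISA2 held 3, 3, 2, 2 and 1 distal myoblast peaks, nearest to the other flanking gene. As background for these and the following counts, 2.36% of the 4832 gene names in either list had a distal peak in myotubes and 15.6% in myoblasts. Only genes that are nearest to sequence over 200 kb from a TSS can have a distal peak. Of 1111 such genes with a recovered TSS position, 67.1% had one in myoblasts, a closer background for the 106 of 114. Recovering a position needed peaks at more than 1 distance, so the peaks counted also decide which genes enter. The 1111 included 746 of the 756 genes with a distal myoblast peak, whereas 3457 of the 4832 gene names were placed at all. The 67.1% may thus be too high.

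ST8SIA2, which encodes a polysialyltransferase that modifies the neural cell adhesion molecule, led in myotubes with 4 distal peaks. They lay 388.0 to 546.0 kb upstream on chromosome 10, with scores of 13.3, 13.9, 13.3 and 11.6 and with 5.0, 3.5, 1.0 and 3.0 IgG tags. In myoblasts ST8SIA2 had 11, all upstream as well, from 221.8 to 609.2 kb, with scores of 11.3 to 14.8. GRCg7b places SV2B, SLCO3A1, AKAP13, KLHL25 and AGBL1 between ST8SIA2 and its listed neighbour NTRK3, so other genes may be closer to these peaks than ST8SIA2 is.

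MYC followed with 3 distal peaks in myotubes, against 20 in myoblasts. The myotube peaks lay 484 kb upstream (score 13.3, 11.5 c-Myc and 0.5 IgG tags), 260.3 kb downstream (score 12.1, 10.5 and 1.0 tags) and 411 kb downstream (score 13.9, 12 and 2.0 tags). The myoblast peaks lay from 216.0 to 934.1 kb away, 4 upstream and 16 downstream, with scores of 9.59 to 17.9 (median 12), 11 to 20.5 c-Myc tags and 0 to 5.0 IgG tags. The strongest, 501 kb downstream, had 20.5 c-Myc and 3.5 IgG tags. No myotube peak here overlapped a myoblast peak. Downstream, up to the listed neighbour LRRC6, GRCg7b places FAM49B, ASAP1, ADCY8, EFR3A, OC90, HHLA1 and KCNQ3, and upstream, up to NSMCE2, it places TRIB1 and FAM84B. The stretch from MYC to LRRC6 had 18.3 myoblast peaks per Mb beyond 200 kb, and the one from NSMCE2 to MYC had 13.1. The median was 12.5 over the 149 stretches that held a distal peak and had at least 0.5 Mb of such sequence.

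Another 13 genes had 2 distal peaks each in myotubes, and the 8 of them with the highest summed score are described. They were C15ORF15, the transcription factor gene TFEC, ETFDH of mitochondrial electron transfer, the chemokine gene CXCL12, GLP1R, a peptide hormone receptor, TDRD3, VPS41 of lysosomal trafficking, and GDF2, which encodes a bone morphogenetic protein. The other 5 were MIR1769, GTPBP4, BAIAP2L1, CKMT1A and C3H6ORF72, with summed scores of 24.3 to 25.4 against 25.5 for GDF2. Scores of the peaks of the 8 genes ran from 11.6 to 15.6. The GDF2 and CXCL12 peaks lie in the same stretch of chromosome 6. There GDF2 had 5.0 and 6.0 IgG tags, CXCL12 had 5.5 and 1.5, and TFEC, on chromosome 1, had 1.0 and 0.5.

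In myoblasts HSPA13, which encodes a heat shock protein of the endoplasmic reticulum, led with 31 distal peaks, all downstream, from 380.2 to 2045 kb. Their scores ran from 10 to 16.6 with a median of 13.1. Myotubes had no distal peak there. The 4.23 Mb up to MIR1806 hold ROBO1 and ROBO2, axon guidance receptors, in GRCg7b. TIAM2, a Rac exchange factor, had 27 and GTF2H5, a subunit of the transcription factor TFIIH, had 18. These genes flank the same 1.37 Mb of chromosome 3, where 37 myoblast peaks lay, 38.1 per Mb beyond 200 kb. That was the highest value of the 149 stretches, and the lowest was 1.68, between LGSN and PRIM2. GRCg7b places 10 coding genes between TIAM2 and GTF2H5, among them ARID1B of the chromatin remodelling complex BAF.

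The remaining leading genes in myoblasts were ZC3H14, an RNA-binding protein (22 peaks, 20 of them upstream), PCDH10 (21), COX7A2L, which takes part in assembling respiratory supercomplexes (20), DIAPH1 (19, 18 upstream), NTS, the precursor of neurotensin (17), and STK17B, a kinase (16, all downstream). The gene ID listed as DIAPH1 is that of DIAPH2, a related formin gene, in GRCg7b. PCDH10, a protocadherin of neuronal adhesion, had 9 peaks upstream and 12 downstream, from 231.0 to 966.5 kb, with a median score of 11.3. One of them shared the highest score of all distal peaks, 25.7, with 26.0 c-Myc and 1.5 IgG tags. Between PCDH10 and CCRN4L, 2.31 Mb apart, GRCg7b places only PCDH18 and SLC7A11, and 22 myoblast peaks lay there. In myotubes COX7A2L and NTS had 1 distal peak each, and ZC3H14, PCDH10, DIAPH1, GTF2H5, TIAM2 and STK17B had none.

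**Figure D4:**
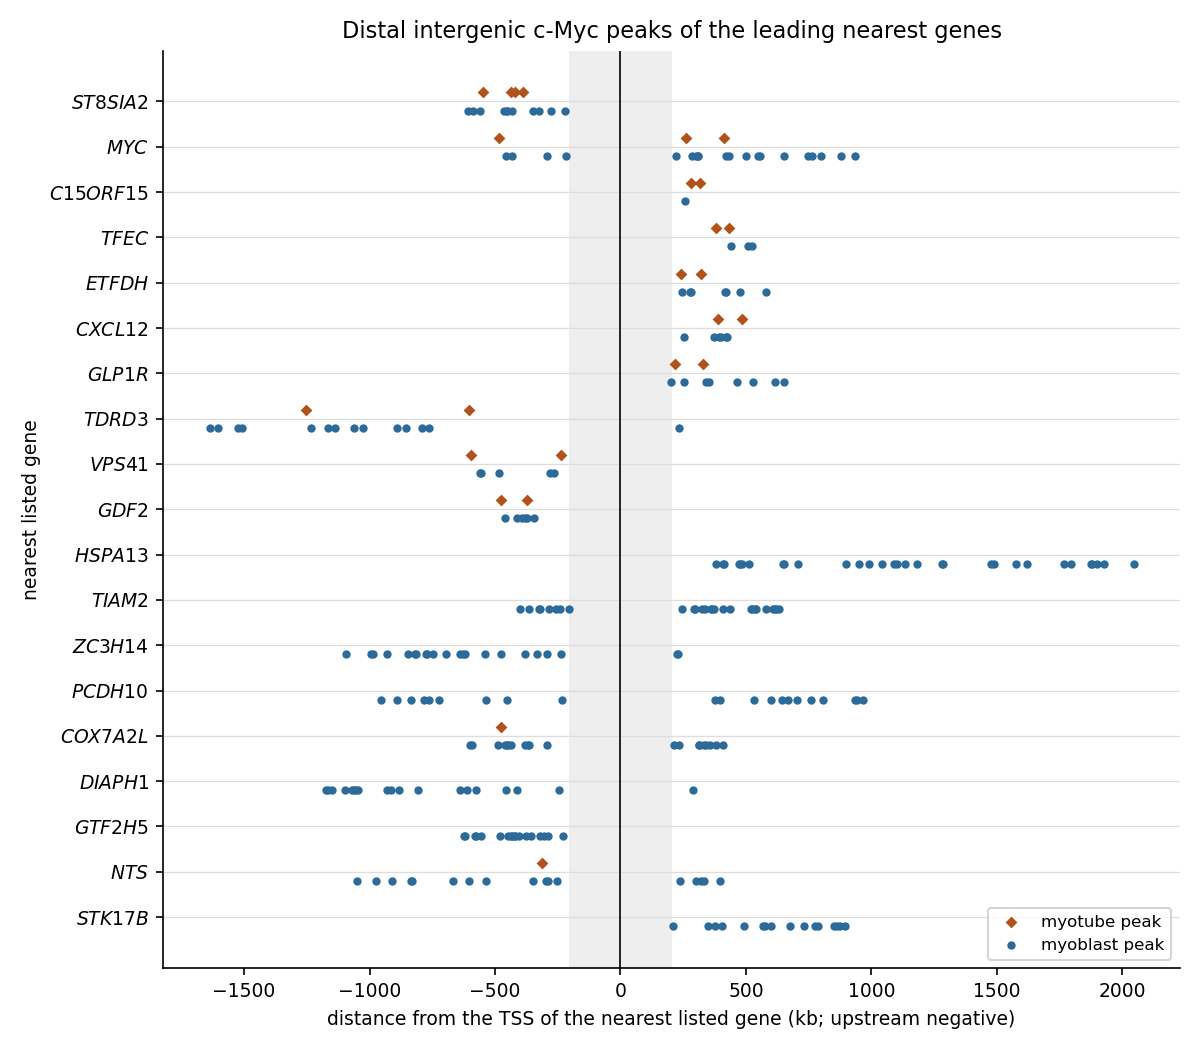
Distal peaks of the 10 leading nearest genes in myotubes and the 10 in myoblasts (19 genes, since MYC is in both), placed by distance from the TSS of that gene in kb, upstream negative; orange diamonds are myotube peaks, blue circles are myoblast peaks, and the grey band is the 200 kb left out by the rule. Peaks of ST8SIA2 are all upstream and those of HSPA13 all downstream, while MYC and PCDH10 have peaks on either side.

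Most of the highest-scoring distal peaks were at genes other than the leading ones. In myotubes the peak nearest to ERCC5, the endonuclease gene of nucleotide excision repair, had a score of 19.1 and the one nearest to HACL1, a lyase of fatty acid oxidation, had 18.5. RELL1 followed with 17.9, with 15.5 c-Myc tags and 0 IgG tags, and then PCDH19 and the ETS factor gene ETV1 with 17.3 each. In myoblasts the peaks nearest to PDIA4, a disulfide isomerase of the endoplasmic reticulum, and to ARHGAP21 shared the score of 25.7 with PCDH10. PDIA4 and ARHGAP21 had 29.5 c-Myc tags each but 8.5 and 2.0 IgG tags. GPR126 had 25.3, MX1, an interferon-induced gene, 24.0, BTG1, an antiproliferative gene, 23.5, and TNC, the gene of tenascin C, 23.1.

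Distal sites were seldom called in both states. Of the 132 myotube peaks, 1 overlapped a myoblast peak (0.758%, 0.0192 to 4.15%), against 15 of 535 nearer intergenic peaks (2.80%, 1.58 to 4.58%) and 74 of all 1061 myotube peaks (6.97%, 5.52 to 8.68%). It was the ERCC5 peak on chromosome 1, from 141664707 to 141664861 in myotubes and from 141664689 to 141664889 in myoblasts (galGal4), 358.6 kb downstream of the TSS. It had 16.5 c-Myc and 7.5 IgG tags in myotubes, against 26.0 and 9.0 in myoblasts, so that it was high in IgG as well: 7.5 was the highest IgG value of any distal peak in myotubes. With centres within 1 kb, 7 distal myotube peaks (5.30%, 2.16 to 10.6%) had a myoblast peak, against 44 nearer ones (8.22%, 6.04 to 10.9%) and 140 of all (13.2%, 11.2 to 15.4%). These were nearest to BRD1, CKMT1A (2 peaks), ERCC5, ESRRG, SIX2 and TLR2-1, and 5 of the 7 myoblast partners were themselves distal peaks by the rule. The CKMT1A pairs, near a creatine kinase gene 206.2 and 211.7 kb away, had centres 190 and 196 bp apart. The median distance from a distal myotube peak to the nearest myoblast peak was 22.1 kb, against 11.1 kb for nearer peaks. Within its own class, the median gap between myoblast peaks was 54.1 kb for distal and 42.1 kb for nearer peaks. These gaps leave out peaks of other classes, so they do not show how sparse all myoblast peaks were in distal sequence.

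A missing partner is not a missing site. The caller score used here is a separate value that the authors' peak caller gave each peak. It is neither the score used above nor the tags behind that score. Its lowest value was 11 in myotubes and 12 in myoblasts. Scaled for depth and in proportion to width, a myoblast peak needed a caller score of at least 18.9 to reach the 11 of myotubes. Of 3090 distal myoblast peaks, 57 did (1.84%, 1.40 to 2.38%), against 2.61% of nearer ones (2.30 to 2.96%). That the caller score grows with depth and width is an assumption that was not tested. Scaling for depth alone would need a lower caller score, and the shares under it were not computed. The count of 57 bears on myoblast peaks without a myotube partner, where cell state and library depth cannot be told apart. The counts of shared peaks above run the other way, from myotube peaks to the list of the deeper c-Myc library. Why most distal myotube peaks had no partner there was not tested.

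Gene lists showed which kinds of gene had distal peaks nearest to them. Shares are of the genes that the peak lists name, as for the background. A gene is named only if some peak is nearest to it, so a distal peak alone can bring it in. Of 68 genes listed for neuronal adhesion and synapse 28 are named, and of 81 channels and receptors 25. For axon guidance and morphogens 45 of 66 are named, and for developmental transcription factors 83 of 137. Of 28 genes of neuronal adhesion and synapse that the lists name, 2 had one in myotubes (7.14%, background 2.36%), PCDH19 and CDH10, and 19 in myoblasts (67.9%, 47.6 to 84.1%, background 15.6%). PCDH10 with 21 peaks, LSAMP, a cell adhesion molecule of the limbic system, with 11, and the cadherin genes CDH6 with 10, CDH2 with 8 and CDH10 with 6 led the list. Ion channels and ligand-gated receptors had 4 of 25 in myotubes, namely the glutamate receptor genes GRIA1 and GRIA3, the calcium channel gene CACNA1D and the sodium channel gene SCN2A, and 13 of 25 in myoblasts (52.0%, 31.3 to 72.2%). Axon guidance and morphogen genes had 0 of 45 in myotubes and 20 of 45 in myoblasts (44.4%, 29.6 to 60.0%), with 7 peaks each for EPHA3, an ephrin receptor, and FZD1, a Wnt receptor. Developmental transcription factors had 6 of 83 in myotubes (7.23%, 2.70 to 15.1%), among them ESRRG, IRX1, GATA6, LHX9 and SIX2, and 36 of 83 in myoblasts (43.4%, 32.5 to 54.7%), with 9 peaks each for ZEB1, ZIC1 and SOX11.

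These shares move with how much distal sequence a gene has. From TSS positions recovered from the lists, 3457 genes were placed, and 251.1 Mb of sequence over 200 kb from any of them held 0.506 distal peaks per Mb in myotubes and 12.1 in myoblasts. A gene of neuronal adhesion had 0.334 Mb of such sequence nearest to it on average, against 0.0726 Mb over all placed genes, and per Mb its list had 0.214 peaks in myotubes and 9.85 in myoblasts. Axon guidance and morphogen genes had 12.2 myoblast peaks per Mb, channels and receptors 13.1, and developmental transcription factors 15.5. Among genes with any distal sequence, 67.1% had a distal peak in myoblasts, against 82.6% of neuronal adhesion genes, 90.9% of axon guidance and morphogen genes and 70.6% of developmental transcription factors. Per Mb, the myoblast peaks of the neuronal adhesion list were thus below the value over all placed genes, although its share of named genes with a peak, 67.9%, was the highest of the 13 lists. Among genes with distal sequence its share was not the highest. Placing a gene needed peaks at more than 1 distance from it, and the sequence includes gene bodies, so these densities are approximate. The shares among genes with distal sequence may be too high, because distal peaks themselves help to place a gene.

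**Figure D5:**
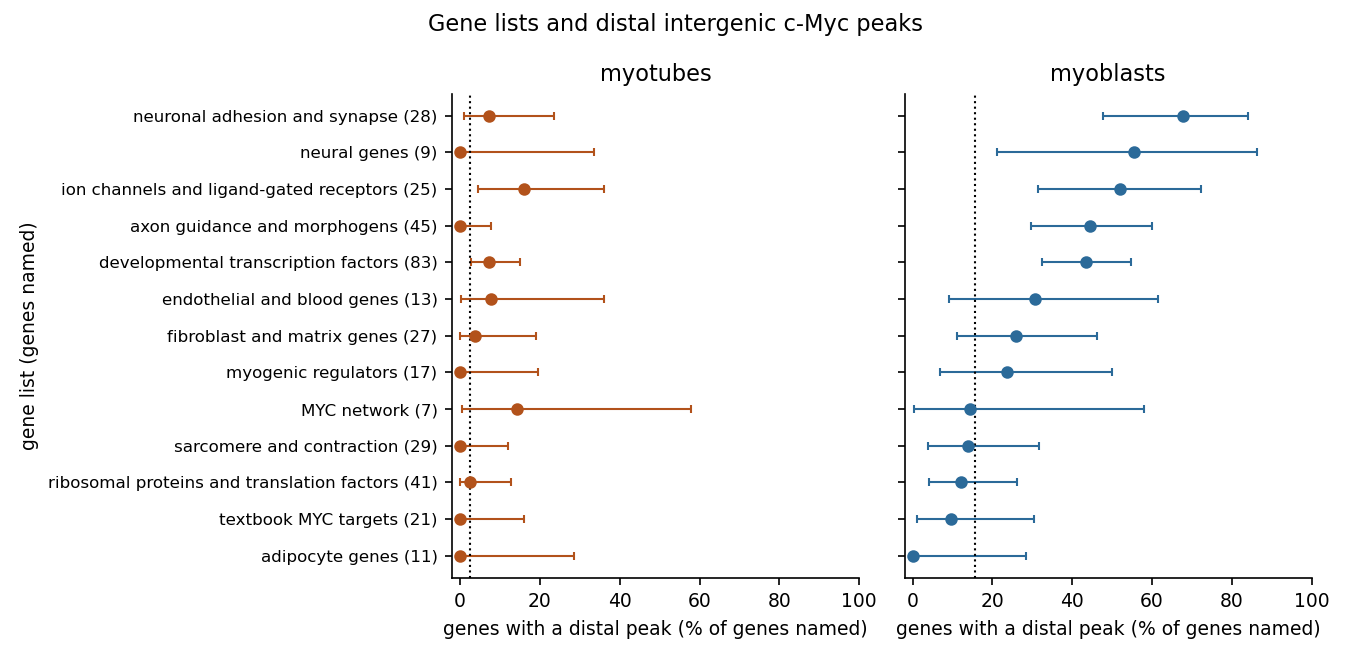
Share of the genes of each list (percent of the genes named in either peak list, their number in brackets) that were nearest to at least 1 distal peak, with exact 95% intervals, myotubes on the left and myoblasts on the right; the dotted line is the share over all genes named, 2.36% in myotubes and 15.6% in myoblasts. Neuronal adhesion stands at 67.9% and textbook MYC targets at 9.52% in myoblasts.

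Among muscle genes, myogenic regulators had 0 of 17 in myotubes, against a background of 2.36%, and 4 of 17 in myoblasts (23.5%, 6.81 to 49.9%), an interval that holds the background of 15.6%. MYF5, a myogenic determination factor, had 13 in myoblasts, all downstream, from 219.8 to 1000.5 kb, with scores of 9.59 to 15.7. ID2, an inhibitor of helix-loop-helix factors, had 7 and EYA2, a transcriptional cofactor, had 1. The 2.12 Mb from MYF5 to NTS held 25 myoblast peaks and 1 myotube peak, and GRCg7b places 11 coding genes there, among them ALX1 and PPFIA2. MYOD1, MYF6, PAX3, PAX7 and MYCN were not the nearest gene of any distal peak in either state. Sarcomere genes had 0 of 29 in myotubes and 4 of 29 in myoblasts (13.8%, 3.89 to 31.7%), near the background: MYH7B, a myosin heavy chain gene, with 6, ACTA1, skeletal alpha-actin, with 4, and DMD and MYOM2 with 1 each. Per Mb of distal sequence, myoblasts had 14.2 peaks at myogenic regulators and 6.49 at sarcomere genes, against 12.1 over all placed genes. These values rest on 4 and 5 genes with distal sequence and on 23 and 12 peaks, 13 of the 23 at MYF5.

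Growth genes, for which c-Myc is best known, had distal peaks at shares not separable from the background of 2.36% in myotubes and 15.6% in myoblasts. Textbook MYC targets had 0 of 21 in myotubes and 2 of 21 in myoblasts (9.52%, 1.17 to 30.4%), the cyclin gene CCND2 with 5 peaks and NPM1, a nucleolar protein, with 1. These genes had 0.0175 Mb of distal sequence each on average, and per Mb of it there were 19.0 myoblast peaks, above the 12.1 over all placed genes, from 6 peaks. Ribosomal protein and translation factor genes had 1 of 41 in myotubes (2.44%, 0.0617 to 12.9%) and 5 of 41 in myoblasts (12.2%, 4.08 to 26.2%), and 13 of the 22 myoblast peaks were at EIF3H, a subunit of the initiation factor eIF3, which also had the myotube peak. Of the MYC network MYC alone had distal peaks, 1 of 7 genes in either state.

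Genes of other cell types were also among the nearest genes, which says nothing about their expression. In myotubes 1 of 27 fibroblast and matrix genes (COL12A1), 1 of 13 endothelial and blood genes (HBZ) and 0 of 9 neural genes had a distal peak (background 2.36%). In myoblasts these were 7 of 27 (25.9%, 11.1 to 46.3%), 4 of 13 (30.8%, 9.09 to 61.4%) and 5 of 9 (55.6%, 21.2 to 86.3%), with a background of 15.6%. MBP, the myelin basic protein gene, had 11 peaks. Of placed neural genes 62.5% had distal sequence, against 32.1% of all placed genes. Per Mb of such sequence, myoblasts had 18.0, 10.3 and 16.4 peaks at these lists, from 21, 11 and 17 peaks, against 12.1 over all placed genes. Adipocyte genes had 0 of 11 in either state. Whether other cells in the cultures contributed peaks was not tested.

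Stretches without other coding genes held distal peaks too. Of 442 stretches between listed flanking genes with at least 1 distal peak, 34 had no other coding gene in GRCg7b. These held 0.393 peaks per Mb in myotubes, from 4 peaks, and 11.2 in myoblasts, from 114. Stretches with 1 to 4 such genes held 0.451 and 12.7, those with 5 to 9 held 0.651 and 13.2, and those with 10 or more held 0.667 and 13.6. Differences between these densities were not tested. Stretches without any distal peak were left out, so the values cannot show how peak density follows gene content. The stretches without such a gene that held the most distal peaks were the 1.85 Mb between the teneurin gene listed as ODZ3 and AGA, with 1 myotube and 12 myoblast peaks, and the 1.26 Mb between GATA3 and MIR1626, with 0 and 12. The 1.10 Mb between MIR7473 and ACVR2A held 1 and 9, and the 0.866 Mb between MIR7463 and BCL11A held 0 and 9.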

How the data were processed

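Data were 1 c-Myc and 1 IgG ChIP-seq library each of myotubes and myoblasts. Per the submitters' processing notes, the tools were CASAVA 1.8.2, Trimmomatic 0.30, FastQC 0.10.1, Bowtie2 2.1.0 and HOMER 4.6, and the build was galGal4; peaks were annotated with unadjusted tag signal from a c-Myc and an IgG library, per the file headers, and no source used here states the options of the peak caller. In the authors' deposited lists the score equals c-Myc tags at calling per 10M tags of the library, the signal columns hold tags per peak as multiples of 0.5, the folds are ratios, the focus ratio is a fraction, and each peak has a p-value that was not used here.

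Counts, medians and exact (Clopper-Pearson) intervals were computed with Python 3.11.15, numpy 2.4.6, pandas 2.3.3, scipy 1.17.1 and matplotlib 3.10.9, and the counting was tested on simulated data. TSS positions were recovered within 2 bp for 3626 of 4934 transcripts from peak centres and signed distances; of 4834 gene IDs, 4792 are in GRCg7b, which gave names and neighbours only. Flanking intervals were used where their length in GRCg7b was 0.8 to 1.25 times that in galGal4. Each gene of a list was matched by exact symbol.

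Members and lists were chosen with earlier results of these data known. Genes named were the 10 with most distal peaks per state, those of the 10 highest and 5 farthest peaks, of shared peaks, MYC, MYCN and myogenic factors, and up to 5 per list. Myotube genes without a distal myoblast peak, pairs within 1 kb, intervals and densities per Mb were added after values were seen. Alternatives were distances of 100 and 500 kb, both folds at 6 or above, the upper 50% by score, as many top myoblast as myotube peaks, repeats and CpG islands kept, Z included, unplaced sequence left out, and other overlap rules. A few genes that this rule names are not reported here.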

Additional observations from a re-analysis of the deposited data

How the results depend on the processing

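Of 141 values recomputed under alternatives, 89 stayed within their counting interval or, for counts, within 1.5 times, and 52 moved. With a limit of 100 kb there were 246 distal peaks in myotubes and 5644 in myoblasts (23.2 and 29.2% of peaks, 30.1 and 37.8% of intergenic peaks), 3 overlapped between states, and in myoblasts macrochromosomes held 71.3% and 63.9% of developmental transcription factors had one. With 500 kb there were 22 and 731 (2.07 and 3.78% of peaks, 2.69 and 4.90% of intergenic peaks) and 0 overlaps; 1.20% of developmental transcription factors in myotubes and 7.23% in myoblasts had one, and in myoblasts 21.4% of neuronal adhesion genes did, 86.0% lay on macrochromosomes and peaks without an IgG tag were 3.38 percentage points more frequent than among other intergenic peaks (1.35 at 200 kb). Among peaks with both folds at 6 or above, distal peaks were 15.8% of myotube and 22.0% of myoblast peaks (20.3 and 27.2% of intergenic peaks), with 0 overlaps, and myoblasts had 1489 such peaks, 2.50 per gene and 77.6% on macrochromosomes. In the upper 50% by score there were 62 in myotubes and 1361 in myoblasts, in myoblasts 14.1% of peaks and 18.6% of intergenic peaks, 2.38 per gene, with a median score -0.5 relative to other intergenic peaks (-0.4 over all).

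Among the 1061 highest-scoring myoblast peaks 81 were distal, 7.63% of peaks and 10.8% of intergenic peaks, 1.05 per gene, 64.2% on macrochromosomes and 54.3% upstream. Their median score was 0.5 above that of other intergenic peaks, peaks without an IgG tag were 6.25 percentage points more frequent, and 1.20% of developmental transcription factors and 14.3% of neuronal adhesion genes had one. With repeat and CpG labels kept, 18.1% of myoblast peaks and 23.4% of intergenic ones were distal, and 5 overlapped. With Z included these shares were 16.5 and 21.4%, and 72.8% lay on macrochromosomes. Counting centres within 1 kb gave 7 shared peaks in place of 1.

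With 1 library per antibody and state, no replicate could be left out and no difference between states has a replicate check. No paired analysis was possible because each group has 1 library and no result comes from a test. A distal myotube peak rests on 9.5 to 16.5 c-Myc tags, so single peaks are imprecise. A site missing from either list need not be unbound.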
